A study of Mus musculus with 21 samples.

Results

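The genes described here code for ubiquitin E3 ligases and for the adaptors that bring substrates to them, as measured in mouse cortex 24 h after the last of a series of head impacts. They were taken by name from the table of cortical RNA values: cullins (Cul1 to Cul9), F-box proteins (Fbxl, Fbxo and Fbxw), Kelch-like proteins (Klhl), RING finger proteins (Rnf), tripartite motif proteins (Trim), membrane-associated RING proteins (March) and HECT-type ligases (Herc, Hectd, Huwe1 and Nedd4). The rule reads gene symbols only, but it was written with earlier results of these data known, and it leaves out Fbxl16, which rose more than any gene it keeps. The rule found 118 of the 5544 genes in the table, out of 296 protein-coding genes of the annotation whose symbols it matches. By family these were 7 cullins, 27 F-box, 14 KLHL, 39 RNF, 14 TRIM, 6 MARCH and 11 HECT-type genes.

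The RNA came from whole cortex of male C57BL/6 mice (C57Bl/6J in the study's methods), marked WT in the table and aged 12 weeks by the labels, with 1 library from each mouse. The HF-HI (high-frequency head impact) group, 11 mice, received 5 impacts a day for 6 days, 30 in all, and the sham group, 10 mice, was handled and anaesthetized in the same way without impacts, so both groups carry the isoflurane exposure. Values are variance-stabilized read counts on a log2 scale, and every difference below is the HF-HI mean minus the sham mean on that scale, where 1 is a doubling for well-expressed genes. Since low counts are drawn together on this scale, it understates the change of low genes. A gene was called when its adjusted p was under 0.05 in limma, fitted over the whole table with Benjamini-Hochberg adjustment. Every adjusted p given below is from that fit unless another is named. Positions are on GRCm38 and span the whole gene.

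Ubiquitin is passed from an E1 enzyme to an E2 enzyme and then, with the help of an E3 ligase, onto a lysine of a substrate protein, which can send that protein to the proteasome, move it between membranes or change its partners. Cullin-RING ligases are built on a cullin scaffold that binds a small RING protein at 1 end and an adaptor with its substrate receptor at the other, F-box proteins serving Cul1 and Kelch-like proteins serving Cul3, and they are switched on by attachment of the ubiquitin-like protein Nedd8. HECT ligases carry the ubiquitin on their own cysteine before passing it on, and TRIM, RNF and MARCH proteins mostly act through their RING domain. At synapses such ligases set the turnover of receptors and scaffold proteins.

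Of the 118 genes, 77 passed the test, or 65.3%, against 66.3% of the whole table. Among them 31 rose (26.3%, against 32.6% of the table) and 46 fell (39.0%, against 33.6%). The median difference was -0.024 over the 118 genes and -0.0086 over the table. The share called was thus near the background, and most differences were small. Of the 118 genes, 14 rose by at least 0.25, where 17.8% of the table did. A fall of at least 0.25 was seen in 10 of the 118, a share near the 8.04% of the table. For 16 of the 118 genes, 9 higher and 7 lower in HF-HI, no sham library reached the range of the HF-HI libraries, while 13.5% of the table was separated in this way. In bulk tissue, fewer cells of a type and less RNA per cell cannot be told apart.

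Counts and medians by family were as follows. Of the cullins, 1 rose and 5 fell, with a family median of -0.13. KLHL had 3 that rose and 8 that fell (median -0.15), and MARCH 1 and 3 (median -0.099, or -0.030 with the GC trend of each library removed and -0.038 without the lowest quartile of genes). F-box had 7 that rose and 10 that fell (median -0.020, and 0.021 with relative depth as a covariate), HECT 4 and 5 (median -0.043), and RNF 9 and 12, with a median of 0.0018 that became -0.050 with library medians centred and -0.041 after quantile normalization. TRIM had 6 that rose and 3 that fell, with a median of 0.062 as deposited and 0.0098 with library medians centred. No difference between families was tested.

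**Figure D1:**
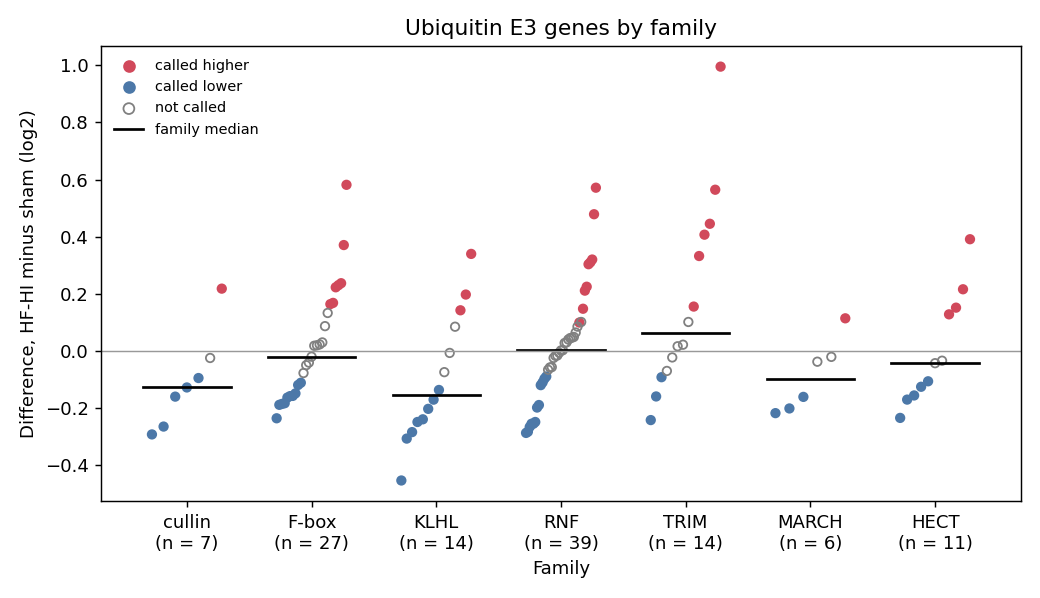
Difference between HF-HI (n = 11) and sham (n = 10) means on the log2 scale for each of the 118 E3 genes, by family. Filled points passed the test (red higher, blue lower in HF-HI), open points did not, and bars are family medians. The highest point is Trim8 at 1.00 and the lowest is Klhl13 at -0.45.

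**Figure D2:**
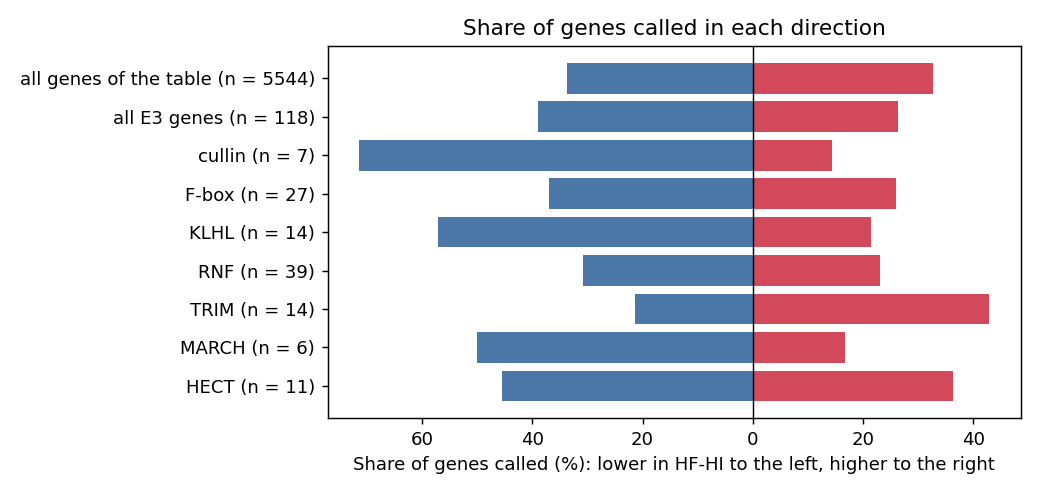
Percent of genes called lower in HF-HI (blue, to the left) and higher (red, to the right) in the whole table, over all E3 genes and by family. Cullins reached 71.4% lower and 14.3% higher, and TRIM genes 21.4% lower and 42.9% higher.

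A RefSeq promoter window, from 250 bases before to 50 after the start, was at hand for 85 of the 118 genes. The parts upstream of the RefSeq start are shown for 2 genes that rose and 2 that fell, those with the largest differences among called genes with 1 annotated start and no overlap between the groups, so that genes moving in opposite directions can be compared. They are written 5′ to 3′ on the strand of the gene, on GRCm38.p6, and capitals mark either the core of the cAMP response element, TGACG, or the GC box, GGGCGG, on either strand. The window of Fbxl18 is chr5:142895239-142895488, minus strand, that of Trim9 chr12:70347615-70347864, minus strand, that of Klhl7 chr5:24100340-24100589, plus strand and that of Rnf141 chr7:110844382-110844631, minus strand. The gene spans given below, from GENCODE, reach further upstream than the RefSeq start for Fbxl18 (to 142895421) and Rnf141 (to 110844457). Part of each of these windows thus lies inside the gene as annotated there.
Fbxl18: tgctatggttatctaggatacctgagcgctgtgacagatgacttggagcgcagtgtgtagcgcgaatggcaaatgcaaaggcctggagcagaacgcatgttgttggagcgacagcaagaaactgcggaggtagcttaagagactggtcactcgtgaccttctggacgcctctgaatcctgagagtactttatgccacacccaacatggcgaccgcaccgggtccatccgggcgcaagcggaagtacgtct
Trim9: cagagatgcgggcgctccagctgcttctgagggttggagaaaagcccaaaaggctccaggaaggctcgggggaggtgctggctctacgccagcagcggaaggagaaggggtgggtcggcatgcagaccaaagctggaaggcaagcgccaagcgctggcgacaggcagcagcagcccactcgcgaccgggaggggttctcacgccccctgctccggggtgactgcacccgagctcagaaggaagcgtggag
Klhl7: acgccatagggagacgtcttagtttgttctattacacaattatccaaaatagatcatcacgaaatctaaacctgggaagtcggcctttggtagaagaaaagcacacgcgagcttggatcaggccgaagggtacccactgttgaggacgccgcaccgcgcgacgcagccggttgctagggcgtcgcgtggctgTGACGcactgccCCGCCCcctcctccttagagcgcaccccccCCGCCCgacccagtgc
Rnf141: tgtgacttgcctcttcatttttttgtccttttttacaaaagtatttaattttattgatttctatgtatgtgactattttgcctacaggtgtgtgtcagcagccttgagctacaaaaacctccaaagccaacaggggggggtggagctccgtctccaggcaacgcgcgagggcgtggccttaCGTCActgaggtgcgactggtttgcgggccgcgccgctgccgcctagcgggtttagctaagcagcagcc

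Neither motif was found in the window of either gene that rose, while the window of Klhl7 held 1 response element core and 2 GC boxes and that of Rnf141 held 1 core. Over whole windows, the core was present in 5 of 25 genes that rose, 13 of 30 that fell and 34 of all 85, against 39.7% of 4329 table genes with a window. The GC box was present in 76.0% of those that rose, 83.3% of those that fell and 74.5% of the table genes. The full response element TGACGTCA, which contains the core, was found in 2 of the 85 (2.35%, against 4.18% of table genes). The E-box CACGTG was found in 8.24% (against 12.7%), CCAAT in 43.5% (against 42.6%) and TATAAA in 14.1% (against 8.02%), all on both strands. These are matches of letters only, and no test was made.

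The cullins, the scaffolds of the largest group of E3 ligases, were mostly lower in HF-HI. Cul1 ran from 10.47 to 10.76 in sham (median 10.58) and from 10.17 to 10.39 in HF-HI (median 10.32). Cul1 (ENSMUSG00000029686, chr6:47453398-47526139) is the scaffold of the SCF ligases, and every HF-HI library lay below every sham library, with a difference of -0.29 ± 0.034 (SE, adjusted p = 1.81e-07). Cul5 ran from 10.50 to 10.70 in sham (median 10.58) and from 10.26 to 10.51 in HF-HI (median 10.31). Cul5 (ENSMUSG00000032030, chr9:53614582-53670014), the partner of Rnf7, lay below every sham library in 10 of the 11 HF-HI libraries and differed by -0.26 ± 0.034 (SE, adjusted p = 5.53e-07). Cul3 ran from 11.23 to 11.53 in sham (median 11.39) and from 11.15 to 11.44 in HF-HI (median 11.22). Cul3 serves the Kelch-like adaptors, and although its groups overlapped it fell by 0.16 (adjusted p = 0.00223).

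Cul2, the scaffold of the von Hippel-Lindau ligase, ran from 9.44 to 9.72 in sham (median 9.56) and from 9.33 to 9.57 in HF-HI (median 9.46), a difference of -0.13 ± 0.036 (SE, adjusted p = 0.00334). Cul4b ran from 8.79 to 9.12 in sham (median 8.91) and from 8.75 to 8.98 in HF-HI (median 8.81). Cul4b, 1 of a pair of close paralogs that work with Ddb1, fell by 0.095 (adjusted p = 0.0316), the smallest called difference of the cullins, and its call was lost in 6 of the 21 fits that left out 1 library. The other, Cul4a, ran from 9.40 to 9.57 in sham (median 9.47) and from 9.32 to 9.58 in HF-HI (median 9.47), with a difference of -0.025 ± 0.034 (SE, adjusted p = 0.532) that did not pass the test. Cul9 ran from 9.36 to 9.84 in sham (median 9.61) and from 9.46 to 9.98 in HF-HI (median 9.83). Cul9, a large cytoplasmic cullin also known as Parc, was the only cullin called higher, at 0.22 ± 0.064 (SE, adjusted p = 0.00485), and 5 of its 11 HF-HI libraries lay above every sham library.

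Exonic GC content moved with these differences. Each library has its own trend of value on GC content, with slopes from -0.23 to 0.0058 log2 units per 10 percentage points in sham and from -0.039 to 0.16 in HF-HI, and once the trend of each library was removed Cul1 (-0.25) and Cul5 (-0.15) were still called lower. Cul3 then differed by -0.017 (adjusted p = 0.602), Cul2 by -0.032 (adjusted p = 0.35), Cul4b by -0.014 (adjusted p = 0.744) and Cul9 by 0.012 (adjusted p = 0.827), none of them called. The family median went from -0.13 to -0.032. Whether the trend is technical was not tested.

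**Figure D3:**
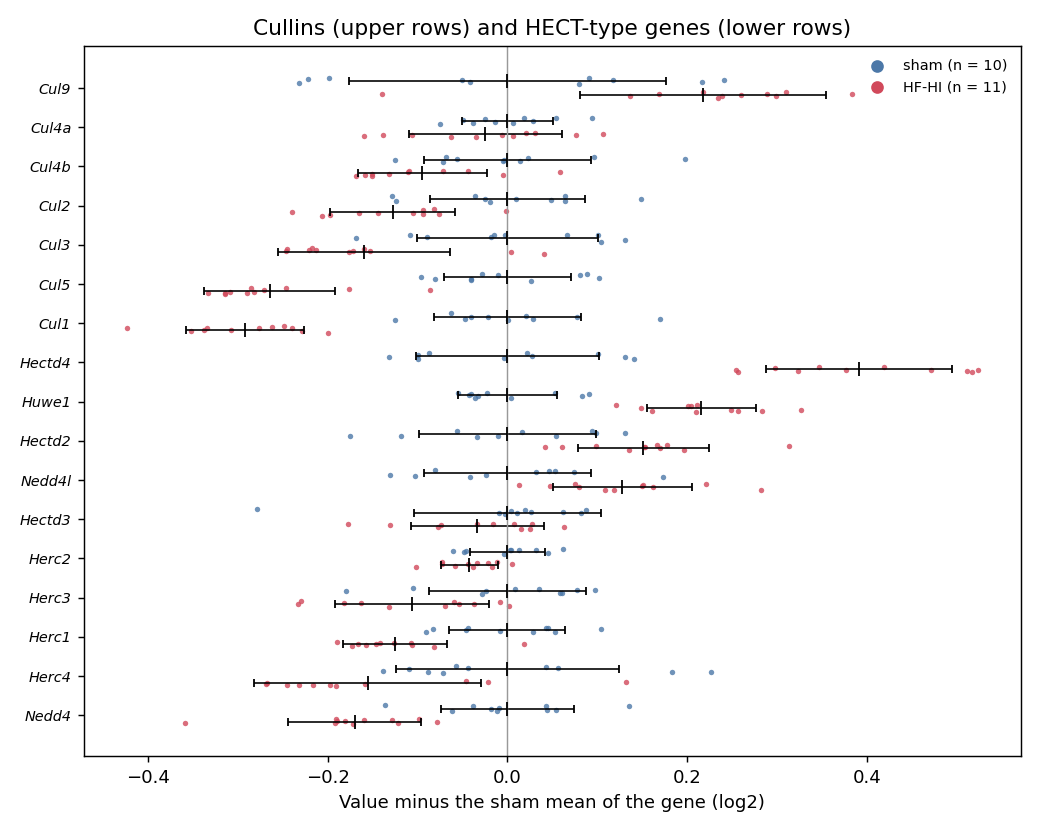
Value of each library minus the sham mean of the gene (log2) for the 7 cullins and 10 HECT-type genes, each block ordered by difference, with sham in blue (n = 10) and HF-HI in red (n = 11). Black bars show the mean and SD of each group, and the groups are separate for Cul1, Hectd4 and Huwe1.

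F-box proteins are the substrate receptors of Cul1 ligases, and their largest changes were increases. The same held for the whole table, where 318 genes were called higher by at least 0.5 and 13 lower. Fbxl18 ran from 8.27 to 8.82 in sham (median 8.54) and from 9.03 to 9.32 in HF-HI (median 9.10). All HF-HI libraries of Fbxl18 (ENSMUSG00000066640, chr5:142866946-142895421), an F-box protein with leucine-rich repeats, lay above the sham libraries, and the difference was 0.58 ± 0.061 (SE, adjusted p = 3.52e-08). Fbxo42 ran from 8.41 to 8.83 in sham (median 8.65) and from 8.84 to 9.17 in HF-HI (median 9.03). Fbxo42 (ENSMUSG00000028920, chr4:141147913-141204062), an F-box protein reported to act on p53, was also separate between the groups and rose by 0.37 ± 0.049 (SE, adjusted p = 9.61e-07). The others that rose were the neuronal Fbxo41, Fbxo21, Fbxo32 (atrogin-1, known from muscle wasting), Fbxw5 and Fbxl19, with differences from 0.16 to 0.24. With the GC trend of each library removed, as described for the cullins, Fbxo41 and Fbxw5 were no longer called (-0.031 and -0.035) and Fbxl19 was called lower (-0.14).

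Fbxo33 ran from 9.62 to 10.12 in sham (median 9.88) and from 9.47 to 9.79 in HF-HI (median 9.64). Fbxo33 had the largest fall among the F-box genes, -0.24 ± 0.053 (SE, adjusted p = 0.000484), and 4 HF-HI libraries lay below every sham library. Others that fell were Fbxo2, Fbxo44, Fbxo25, Fbxl5, Fbxl17, Fbxo38, Fbxl2 and Fbxo28, by 0.11 to 0.19, among them Fbxl5, the iron-sensing receptor. Fbxl5 was not called with the GC trend removed (-0.00050). Fbxo2, which recognizes glycoproteins and is abundant in neurons, and Fbxo44 are 138 bases apart on chromosome 4 and fell by similar amounts (-0.19 and -0.19), a pair picked after their values were seen. With the GC trend removed they differed by -0.52 and -0.36. Fbxo31, Fbxo34, Fbxl20, Fbxo45, Fbxo3, Fbxw2, Fbxw11, Fbxo11, Fbxw7 and Fbxo9 were not called, with differences from -0.077 to 0.13. They include Fbxw7, the receptor for cyclin E and Notch, at -0.050 ± 0.062 (SE, adjusted p = 0.487). Of this group, Fbxo9 (-0.14) was called lower with the GC trend removed, and Fbxo3 (0.14) and Fbxw2 (0.10) higher.

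Most of the Kelch-like adaptors of Cul3 that passed the test were lower in HF-HI. Klhl13 ran from 9.18 to 9.68 in sham (median 9.47) and from 8.50 to 9.31 in HF-HI (median 9.13). Klhl13 (ENSMUSG00000036782, chrX:23219271-23365082), which with Klhl9 targets Aurora B in dividing cells, had the largest fall of all 118 genes, -0.45 ± 0.099 (SE, adjusted p = 0.000372). Its HF-HI libraries were widely spread, with 3 of them at 8.50, 8.60 and 8.65 and the other 8 between 8.89 and 9.31, and 7 of the 11 lay below every sham library. Klhl9 ran from 11.39 to 11.69 in sham (median 11.56) and from 11.17 to 11.40 in HF-HI (median 11.27). Klhl9 (ENSMUSG00000070923, chr4:88718292-88722465) fell by 0.28 (adjusted p = 8.05e-07), with 10 HF-HI libraries below every sham library. Klhl9 and Klhl13 are close paralogs, so reads that match both could have been split between them by the counting, and 15.8% of the exonic bases of Klhl9 lie opposite another annotated gene.

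Klhl7 ran from 10.35 to 10.53 in sham (median 10.42) and from 9.98 to 10.22 in HF-HI (median 10.14). Klhl7 (ENSMUSG00000028986, chr5:24100605-24160792), a gene of inherited retinal degeneration whose upstream window is printed above, was separate between the groups and differed by -0.31 ± 0.032 (SE, adjusted p = 4.40e-08). Klhl15 (-0.25), an adaptor for a regulatory subunit of the phosphatase PP2A, and Klhl24 (-0.24), which binds kainate receptors, were also separate. Klhl11 (-0.20), Klhl23 (-0.17) and Klhl42 (-0.14) fell with overlapping groups.

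Klhl29 ran from 8.48 to 9.04 in sham (median 8.75) and from 8.96 to 9.32 in HF-HI (median 9.10). Klhl29 rose by 0.34 ± 0.062 (SE, adjusted p = 5.44e-05), the largest increase in its family, with 7 HF-HI libraries above every sham library. Klhl2 (0.20), known as Mayven, an actin-binding adaptor for WNK kinases, and Klhl26 (0.14) rose too. Klhl26 turned to -0.10 (adjusted p = 0.0358) once the GC trend was removed. Klhl12 (0.085), Klhl22 (-0.0069) and Klhl8 (-0.074) did not pass the test as deposited. Klhl12 (0.16) was called higher with the GC trend removed, and Klhl8 (-0.12) lower.

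**Figure D4:**
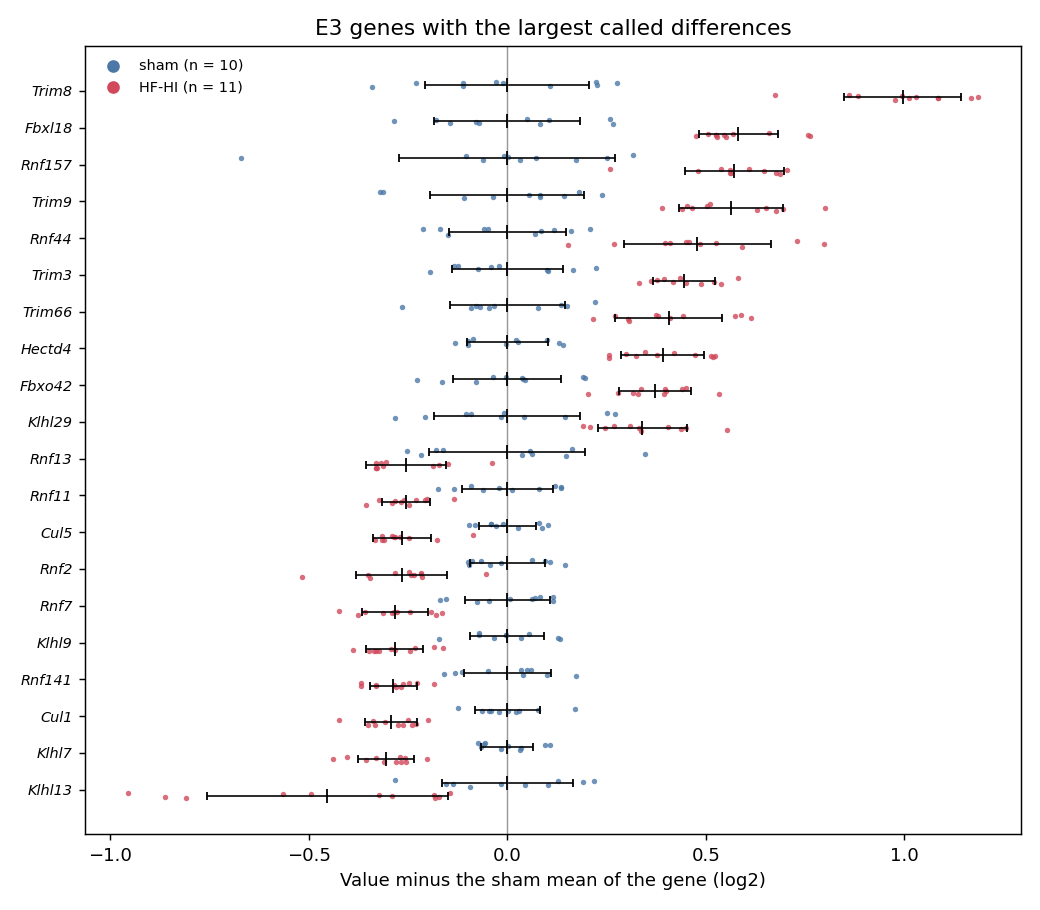
Value of each library minus the sham mean of the gene (log2) for the 10 called E3 genes with the largest increases (upper rows) and the 10 with the largest decreases (lower rows). Points are single libraries (sham blue, n = 10, HF-HI red, n = 11) and black bars give mean and SD. Trim8 stands furthest to the right, and Klhl13 has the widest HF-HI spread.

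RNF is the largest family here and held called changes in both directions. Its share called, 53.85%, was below the 66.3% of the table. The median absolute difference was 0.0995 over its genes and 0.156 over the table. Rnf157 ran from 10.12 to 11.11 in sham (median 10.81) and from 11.05 to 11.50 in HF-HI (median 11.35). Rnf157 (ENSMUSG00000052949, chr11:116336353-116413032), a brain-enriched ligase linked to neuronal survival, rose by 0.57 ± 0.084 (SE, adjusted p = 3.64e-06), and 10 of 11 HF-HI libraries lay above every sham library. Sham replicate 5 was far below the other 9 sham libraries. Rnf44 ran from 8.38 to 8.80 in sham (median 8.60) and from 8.74 to 9.38 in HF-HI (median 9.04). Rnf44 rose by 0.48 ± 0.069 (SE, adjusted p = 3.05e-06), again with 10 HF-HI libraries above all sham, and with the GC trend removed the difference was 0.25, still called. The others that rose were Rnf24, Rnf123, Rnf214, Rnf10, Rnf181, Rnf6 and Rnf111, by 0.10 to 0.32, of which Rnf214 was separate between the groups. All of them but Rnf181 (0.13, adjusted p = 0.0521) were still called with the GC trend removed, Rnf123 at 0.11 and Rnf10 at 0.13. With GC and length trends removed together, Rnf123 (0.087) and Rnf10 (0.0997) were not called, while Rnf181 (0.21) and the rest were. Exons of Rnf214 and Bace1 share 975 bases on opposite strands and those of Rnf24 and Pank2 share 1125, and the strand setting of the counting is not given in the sources used here.

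Rnf141 ran from 10.01 to 10.35 in sham (median 10.21) and from 9.80 to 9.99 in HF-HI (median 9.89). Rnf141 (ENSMUSG00000030788, chr7:110800432-110844457), whose upstream window is printed above, had the largest fall of the RNF genes, -0.29 ± 0.038 (SE, adjusted p = 1.11e-06), with no overlap between the groups. Rnf7 ran from 9.55 to 9.84 in sham (median 9.76) and from 9.30 to 9.56 in HF-HI (median 9.44). Rnf7 is Rbx2, the RING partner of Cul5, and it fell by 0.28 (adjusted p = 3.96e-06), beside -0.26 for Cul5 itself. With GC and length trends removed together, Rnf7 differed by -0.040 (adjusted p = 0.282), which ended its call, and Cul5 by -0.18, still called. Rnf2 ran from 8.58 to 8.82 in sham (median 8.65) and from 8.16 to 8.62 in HF-HI (median 8.43). Rnf2 is Ring1b, the catalytic subunit of Polycomb complex PRC1 that ubiquitinates histone H2A, and it differed by -0.27 ± 0.046 (SE, adjusted p = 3.01e-05). In 10 HF-HI libraries it lay below every sham library, and its lowest HF-HI library stood at 8.16.

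Rnf11, a small RING protein that works with Nedd4-type ligases and the A20 complex, ran from 11.89 to 12.20 in sham (median 12.06) and from 11.71 to 11.93 in HF-HI (median 11.81). It fell by 0.25 (adjusted p = 8.13e-06), with 10 HF-HI libraries below all sham. Rnf13 ran from 10.32 to 10.92 in sham (median 10.62) and from 10.24 to 10.53 in HF-HI (median 10.26). Rnf13, a ligase of endosomal and lysosomal membranes, differed by -0.25 ± 0.063 (SE, adjusted p = 0.0012), and by -0.11 (adjusted p = 0.0673) once the GC trend was removed, which ended its call. The others that fell were Rnf139, Rnf4, Rnf170, Rnf168, Rnf227, Rnf145 and Rnf19b, by 0.089 to 0.25. Of these Rnf4, which ubiquitinates SUMO-modified proteins, was separate between the groups (-0.20), and Rnf19b was called by a narrow margin (adjusted p = 0.0498) that 14 of the 21 fits leaving out 1 library did not keep. Rnf168 was the only one of them not called with the GC trend removed (-0.065).

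The 18 RNF genes that were not called had differences from -0.066 to 0.10. They include both partners of the ligase for histone H2B, Rnf20 at -0.058 ± 0.037 (SE, adjusted p = 0.173) and Rnf40 at 0.047 ± 0.052 (SE, adjusted p = 0.437). Rnf112, a ligase enriched in brain, was at 0.028 ± 0.044 (SE, adjusted p = 0.584). Rnf112 (-0.18) and Rnf40 (-0.14) were called lower with the GC trend removed, and Rnf20 (0.0074) was not called. Others were Rnf130, Rnf220, Rnf167, Rnf146, Rnf14, Rnf169, Rnf150, Rnf103, Rnf115, Rnf34, Rnf187, Rnf41, Rnf19a and Rnf114. Of these, Rnf187 (-0.33), Rnf114 (-0.25), Rnf41 (-0.10) and Rnf220 (-0.097) were called lower with the GC trend removed, and Rnf146 (0.12) higher.

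The TRIM family held the largest increase of all 118 genes. Trim8 ran from 7.62 to 8.24 in sham (median 7.95) and from 8.64 to 9.15 in HF-HI (median 8.97). Trim8 (ENSMUSG00000025034, chr19:46501702-46516848), a RING ligase known from NF-kB and cytokine signalling, rose by 1.00 ± 0.073 (SE, adjusted p = 2.44e-10), a ratio of 1.99 on this scale, with every HF-HI library above every sham library. Its mean over all libraries was the lowest of the 118 genes and within the lowest 0.32% of the table. Since the filter behind the table is not given, whether Trim8 passed it only through its HF-HI values was not tested. Trim9 ran from 10.45 to 11.004 in sham (median 10.83) and from 11.15 to 11.57 in HF-HI (median 11.28). Trim9 (ENSMUSG00000021071, chr12:70244533-70347614), a brain ligase of axon guidance and branching that binds the netrin receptor DCC, rose by 0.56 ± 0.067 (SE, adjusted p = 2.17e-07) without overlap. Trim3 ran from 9.12 to 9.53 in sham (median 9.28) and from 9.64 to 9.89 in HF-HI (median 9.75). Trim3 (ENSMUSG00000036989, chr7:105604463-105633571), a neuronal ligase for a scaffold protein of the postsynaptic density, was likewise separate and rose by 0.45 ± 0.048 (SE, adjusted p = 5.67e-08).

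Trim66 ran from 8.58 to 9.07 in sham (median 8.80) and from 9.06 to 9.46 in HF-HI (median 9.22). Trim66, a chromatin-binding protein of the transcription intermediary group, rose by 0.41 ± 0.058 (SE, adjusted p = 2.63e-06), with 10 HF-HI libraries above every sham library. Trim44 (0.33), also separate between the groups, and Trim32 (0.16), which is mutated in a muscular dystrophy, rose as well, the latter without a call once the GC trend was removed (0.068). Trim24 ran from 8.83 to 9.13 in sham (median 8.99) and from 8.60 to 8.94 in HF-HI (median 8.69). Trim24, like Trim66 of the transcription intermediary group, fell by 0.24 (adjusted p = 5.77e-05), the largest fall of the family. Trim37 (-0.16) and Trim33 (-0.092, or -0.010 and not called with the GC trend removed) also fell. Trim46, Trim23, Trim28, Trim2 and Trim35 were not called as deposited, with differences from -0.070 to 0.10. Trim28 (-0.19), Trim35 (-0.17) and Trim46 (-0.16) were called lower with the GC trend removed, and Trim23 (0.19) higher.

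The MARCH ligases sit in cell membranes and tag receptors and other membrane proteins. March2 ran from 9.44 to 10.02 in sham (median 9.71) and from 9.33 to 9.70 in HF-HI (median 9.46). March2 (ENSMUSG00000079557, chr17:33685692-33718670) differed by -0.22 ± 0.058 (SE, adjusted p = 0.00206), with 4 HF-HI libraries below all sham, and 19.5% of its exonic bases are shared with Hnrnpm on the same strand, where the counting may have split reads. March5 ran from 8.79 to 9.18 in sham (median 9.02) and from 8.96 to 9.26 in HF-HI (median 9.09). March5, a ligase of the mitochondrial outer membrane, rose by 0.11 ± 0.045 (SE, adjusted p = 0.0276), and lost its call in 3 of the 21 fits that left out 1 library. Nor was it called with library medians centred (0.062, adjusted p = 0.235), quantile normalization (0.080, adjusted p = 0.132), relative depth as a covariate (adjusted p = 0.0532) or the replicate block (adjusted p = 0.0713). March7 (-0.20) and March1 (-0.16), which acts on MHC class II, fell, and neither was called with the GC trend removed (-0.052 and -0.079). March6 (-0.021), of the endoplasmic reticulum, and March8 (-0.038) were not called.

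Among the HECT-type ligases 4 rose and 5 fell. Hectd4 ran from 11.55 to 11.82 in sham (median 11.69) and from 11.94 to 12.21 in HF-HI (median 12.06). Hectd4 (ENSMUSG00000042744, chr5:121220219-121368577), a very large HECT protein, rose by 0.39 ± 0.044 (SE, adjusted p = 1.11e-07) without overlap. Huwe1 ran from 13.07 to 13.22 in sham (median 13.10) and from 13.25 to 13.46 in HF-HI (median 13.34). Huwe1 (ENSMUSG00000025261, chrX:151800807-151935417), a ligase for p53, Mcl1 and Myc family proteins whose variants cause intellectual disability, rose by 0.22 ± 0.029 (SE, adjusted p = 9.61e-07), again with all 11 HF-HI libraries above all sham. Hectd2 ran from 8.46 to 8.77 in sham (median 8.64) and from 8.68 to 8.95 in HF-HI (median 8.79). Hectd2 rose by 0.15 (adjusted p = 0.00178) and by 0.27 with the GC trend removed. An antisense gene, Hectd2os, overlaps 20.2% of the exonic bases of Hectd2. Nedd4l ran from 10.55 to 10.86 in sham (median 10.69) and from 10.70 to 10.97 in HF-HI (median 10.80). Nedd4l, which removes the epithelial sodium channel from membranes, rose by 0.13 (adjusted p = 0.00513), but was not called with library medians centred (0.076, adjusted p = 0.0627) or with GC and length trends removed (0.055, adjusted p = 0.113).

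Nedd4 ran from 12.91 to 13.18 in sham (median 13.04) and from 12.69 to 12.97 in HF-HI (median 12.88). Nedd4, which ubiquitinates AMPA receptors and works in neurite growth, was at -0.17 ± 0.034 (SE, adjusted p = 0.000139), and its difference from its paralog Nedd4l was not tested. Herc1 ran from 13.61 to 13.80 in sham (median 13.71) and from 13.51 to 13.72 in HF-HI (median 13.56). Herc1, a giant HERC protein of membrane traffic, fell by 0.13 (adjusted p = 0.000732), and by 0.054 with the GC trend removed (adjusted p = 0.0437).

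Herc4 ran from 9.02 to 9.39 in sham (median 9.11) and from 8.89 to 9.29 in HF-HI (median 8.96), a difference of -0.16 ± 0.053 (SE, adjusted p = 0.0124). Herc3 ran from 11.63 to 11.90 in sham (median 11.83) and from 11.57 to 11.81 in HF-HI (median 11.74), a difference of -0.11 ± 0.038 (SE, adjusted p = 0.018). Neither call held with the GC trend removed, at -0.042 and -0.048. Herc2, a giant ligase of the DNA damage response that binds Ube3a, ran from 13.36 to 13.48 in sham (median 13.42) and from 13.32 to 13.43 in HF-HI (median 13.38) and did not pass the test at -0.043 ± 0.022 (SE, adjusted p = 0.0938). Hectd3 ran from 8.72 to 9.09 in sham (median 9.01) and from 8.82 to 9.06 in HF-HI (median 8.98) and did not pass either, at -0.034 ± 0.040 (SE, adjusted p = 0.464), and the lowest sham value was a single library, replicate 4, that lay apart from the other 9. With the GC trend removed both were called lower, Herc2 at -0.093 and Hectd3 at -0.19.

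Over all 118 genes, difference and exonic GC content rose together, with a Spearman correlation of 0.56 across genes, against 0.48 over the table, values that describe genes of the same libraries. Of the 30 members with a GC content under 43.3%, 1 rose and 21 fell, while of the 26 with one over 52.6%, 14 rose and 3 fell. Of all genes tested, 9.10% rose and 58.7% fell below the first of these limits, and 59.7% rose and 12.1% fell above the second. With the GC trend of each library removed, 29 members were called higher and 49 lower, against 29.2% and 31.0% of the table, and the median was -0.042. Of the 77 calls, 58 were kept (24 higher and 34 lower) and 17 were lost. Klhl26 (-0.10) and Fbxl19 (-0.14) were called in the opposite direction. Another 18 members were called only then, 5 higher and 13 lower. The largest differences among the 17 that were lost belonged to Rnf13, Fbxo41 (from 0.24 to -0.031), Cul9 and Rnf181 (from 0.21 to 0.13). Of the called genes with the 10 largest differences in each direction, all but Rnf13 kept both call and direction. Removal would also take out any biological difference that follows GC content, and which of these sources the trend has was not tested.

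**Figure D5:**
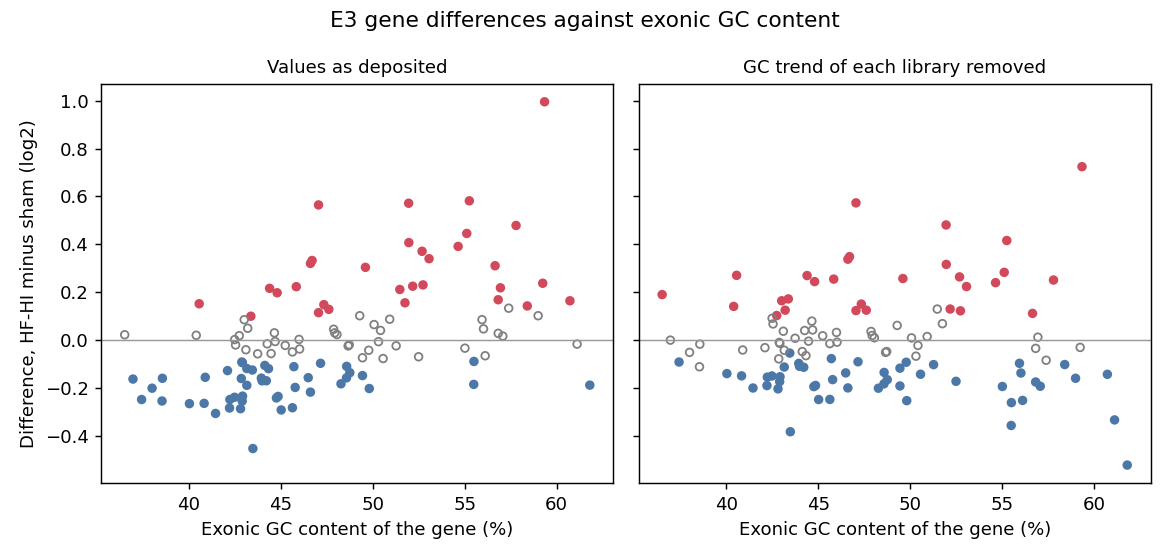
Difference between HF-HI (n = 11) and sham (n = 10) on the log2 scale against exonic GC content in percent for the E3 genes, with values as deposited (left) and with the GC trend of each library removed (right). Filled points were called in that fit (red higher, blue lower), open points were not. On the left, 14 of the 26 genes over 52.6% GC rose and 21 of the 30 under 43.3% fell.

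The libraries differed in depth. Total read counts are unknown for this table. Depth relative to the median library, estimated from the spacing of the values, ran from 0.58 to 1.26 in sham and from 0.55 to 1.64 in HF-HI. Its median was 0.86 in sham and 1.17 in HF-HI, so depth went partly with group. HF-HI replicate 9, with a relative depth of 0.57 and the lowest GC slope of its group (-0.039), was the lowest HF-HI library for 23 of the 118 genes and the highest for 37. Without it 35 genes rose and 45 fell. The SD within a group was larger in sham than in HF-HI for 83 of the 118 genes (70.3%, against 68.1% of the table). Taking each gene's deviation from its mean over all libraries, the median over the 14 KLHL genes was 0.0062 to 0.13 in sham and -0.11 to -0.013 in HF-HI, without overlap, while those of the cullins (0.031 to 0.17 in sham and -0.15 to 0.043 in HF-HI) overlapped. Over the whole table it was 0.0017 to 0.0023 in sham and 0.0014 to 0.0022 in HF-HI. These are values as deposited, without removal of the GC trend. Median exonic GC content was 44.4% in KLHL and 47.6% in the table.

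Levels per kilobase of exon, as the log2 value minus log2 of exonic length, ran from 5.17 for Fbxl18 to 10.57 for Rnf187. After Rnf187 came Trim37 (10.13), Rnf11 (9.84) and Trim44 (9.69), and the lowest after Fbxl18 were Klhl12 (5.37), Hectd2 (5.54) and Trim66 (5.72). Trim44 and Rnf11, which have opposite directions, were thus among the highest, and Fbxl18 and Trim66, which rose, among the lowest.

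Most of the called partners of the cullins were lower in HF-HI. Of a list of 35 symbols of the cullin-RING core and the NEDD8 pathway (RING partners, adaptors, the COP9 signalosome that removes Nedd8, and the enzymes that attach it), 26 were in the table. Of these 5 rose (19.2%, against 32.6% of the table) and 16 fell (61.5%, against 33.6%), with a median of -0.16. Skp1a, which links Cul1 to F-box proteins, was at 12.28 ± 0.14 (SD) in sham and 11.88 ± 0.085 in HF-HI, a difference of -0.40 ± 0.049 (SE, adjusted p = 3.00e-07). Cops9, a subunit of the signalosome, was at 8.91 ± 0.10 (SD) in sham and 8.58 ± 0.13 in HF-HI, a difference of -0.33 ± 0.050 (SE, adjusted p = 5.61e-06). Other signalosome genes rose. Cops7a was at 8.80 ± 0.25 (SD) in sham and 9.42 ± 0.13 in HF-HI, a difference of 0.62 ± 0.080 (SE, adjusted p = 7.08e-07), and Cops6 differed by 0.25 (adjusted p = 0.000429). Among the rest that fell were Elob, Cops5, Cops4, Cops3, Cops2, Gps1, Nae1, Uba3, Rbx1, Cand1 and Ddb1, by 0.14 to 0.31, and Nedd8 itself was not called (-0.12, adjusted p = 0.0523). With the GC trend removed 4 of the 26 were higher and 17 lower.

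Of 151 other E3 symbols that the name rule does not catch, 95 were in the table, of which 27 rose and 35 fell, with a median of -0.035. These shares, 28.4% and 36.8%, were near those of the table (32.6% and 33.6%). The largest increases were in Ube4b, a U-box ligase that extends ubiquitin chains, at 9.79 ± 0.18 (SD) in sham and 10.41 ± 0.087 in HF-HI, a difference of 0.62 ± 0.058 (SE, adjusted p = 7.98e-09), and in Traf3, an adaptor of NF-kB signalling, at 8.66 ± 0.27 (SD) in sham and 9.22 ± 0.062 in HF-HI, a difference of 0.56 ± 0.078 (SE, adjusted p = 1.62e-06). The largest decreases were in Prpf19, the U-box ligase of the spliceosome, at 10.46 ± 0.092 (SD) in sham and 9.99 ± 0.074 in HF-HI, a difference of -0.47 ± 0.037 (SE, adjusted p = 9.02e-10), and in Birc2, an inhibitor of apoptosis, at 9.18 ± 0.083 (SD) in sham and 8.83 ± 0.078 in HF-HI, a difference of -0.35 ± 0.037 (SE, adjusted p = 4.70e-08). The excluded F-box gene, Fbxl16 (chr17:25809085-25821255), stood at 11.01 ± 0.29 (SD) in sham and 12.41 ± 0.22 in HF-HI, a difference of 1.40 ± 0.10 (SE, adjusted p = 1.95e-10), larger than that of any member.

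Markers of neurons, the defining cells of cortex, were all in the table, and 7 of 11 were higher and 1 lower in HF-HI, led by Slc17a7 (0.89) and Rbfox3 (0.83). Their summed level on the log2 scale ran from 16.55 to 16.68 in sham and from 16.68 to 16.81 in HF-HI, so the groups barely met. Of 10 astrocyte markers 9 were in the table, 3 higher and 3 lower, with a summed level from 16.10 to 16.22 in sham and 16.13 to 16.28 in HF-HI. Such a sum mostly follows the most abundant marker, here Slc1a2, with a sham mean of 15.70 beside 12.85 for Aldoc. Gja1 (0.39), Gfap (0.29) and Slc1a2 (0.073) were higher, and S100b (-0.20), Slc4a4 (-0.18) and Slc1a3 (-0.17) lower. Of 10 oligodendrocyte markers 9 were in the table, 2 higher and none lower, with a summed level from 15.37 to 16.09 in sham and 15.40 to 16.07 in HF-HI. Of 10 microglial markers 2 were in the table, 1 higher (Csf1r, 0.13) and 1 lower, so microglia could be followed by 2 genes only, with a summed level from 10.53 to 10.72 in sham and 10.43 to 10.64 in HF-HI. Endothelial markers (3 of 7) gave 1 higher and 1 lower, oligodendrocyte precursor markers (2 of 3) gave 1 lower, and of 4 choroid plexus markers only Ttr was present, not called. The part of the neuronal markers' shift in the E3 differences was not tested.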

How the data were processed

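The authors made stranded libraries of cortical RNA after removal of ribosomal RNA, 6 samples to a pool, aligned the reads to mm10 with STAR and counted them per transcript with eXpress. The authors deposited log2 values variance-stabilized with DESeq2 for 5544 Ensembl genes in 21 libraries, so no count model was fitted here. The filter behind this set of genes, the annotation and the strand setting of the counting are not given in the sources used here.

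Groups came from the labels. Symbols, positions (1-based), exonic lengths and exonic GC content were read from GENCODE M21 (GRCm38, the same assembly as mm10), with a symbol for 5541 genes and a GC content for 5539. The groups were tested with limma 3.58.1 (R 4.3.3) by a linear model and moderated variances that follow the mean, two-sided, with Benjamini-Hochberg adjustment over the table and a threshold of 0.05. The fit was checked on simulated data. A lowess curve of span 0.3 on GC content was subtracted from each library for the GC alternative. Python 3.11.15 with pandas 2.3.3 and numpy 2.4.6 did the rest. The median SD inside a group was 0.10, and read totals are unknown.

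The members, the gene lists and the tests were chosen with earlier results of these data known. The genes given with the values of both groups are the 10 called members with the largest differences in each direction, every cullin and HECT gene and, in each other family, the called member with the largest difference each way. From each list the 2 largest called differences each way are named. Of members whose call was lost or turned without the GC trend, the 4 largest are named where over 10 did so, and Fbxl16 is named as the excluded gene. Other members are named to account for them, and a few items are not reported here. The alternatives tried were a threshold of 0.1, a minimum difference of 0.25, moderation without the mean trend, rank-sum tests, centred library medians, quantile normalization, dropping the lowest quartile of genes, a replicate block, subtraction of the GC trend (alone, with the block, or with the trend on length), a depth covariate, and each library left out.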

Additional observations from a re-analysis of the deposited data

Results flagged for a closer look

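Among the 39 E3 genes described with values in both groups, the sham group (10 libraries) was examined for a single library far from the others by Dixon's criterion, which chance alone meets in about 1 of 20 groups. The limit used was the one for groups of 10, and the HF-HI group, with 11 libraries, was not examined. Single HF-HI libraries far from the others are therefore not listed here, though some genes had them. In HF-HI replicate 9, for example, Nedd4 stood at 12.688, where the other HF-HI libraries ran from 12.855 to 12.969. Cul9 stood at 9.456 in the same library, where the others ran from 9.732 to 9.979. In sham the criterion was met for 2 genes. Rnf157 stood at 10.12 in sham replicate 5, where the other 9 sham libraries ran from 10.69 to 11.11. Hectd3 stood at 8.72 in sham replicate 4, where the others ran from 8.99 to 9.09.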

How the results depend on the processing

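Of the 118 E3 genes, 76 of 77 calls were kept with the Wilcoxon rank-sum test and all 77 without a trend in eBayes. With a minimum difference of 0.25, 24 were called, 14 higher and 10 lower. Without the lowest quartile of genes 86 members remained, 19 higher and 36 lower, and 2804 of the 4158 remaining table genes were called. With library medians centred 24 were higher and 55 lower, and with quantile normalization 25 and 51, and these settings shifted the table median by -0.052 and -0.038. The median over members was -0.075 with medians centred, -0.056 with quantile normalization, -0.042 with the GC trend removed, -0.046 with GC trend and replicate block, -0.048 with GC and length trends removed and -0.037 with depth as a covariate. With the GC trend removed, without and with the replicate block, family medians were -0.032 and -0.032 for cullins, -0.11 and -0.11 for KLHL and -0.030 and -0.032 for MARCH. With GC and length trends removed they were -0.045 for cullins and -0.088 for HECT. With medians centred they were -0.072 (F-box), -0.21 (KLHL), -0.050 (RNF, reversed), 0.0098 (TRIM) and -0.095 (HECT). With quantile normalization they were -0.20 (KLHL), -0.041 (RNF, reversed) and -0.098 (HECT). Without the lowest quartile they were -0.22 (KLHL), 0.022 (TRIM), -0.038 (MARCH) and -0.11 (HECT), where the set of genes itself is smaller. F-box reversed to 0.021 with depth as a covariate. With GC and length trends removed, Cul2 (0.0030), Cul4b (0.033) and Cul9 (-0.045) reversed, and Rnf7 (-0.040) and Nedd4l (0.055) lost their calls. Herc4 lost its call with depth as a covariate (-0.11), as did Cul4b (-0.070), and Herc1 with GC trend and replicate block (-0.050). The cause of these changes was not tested.

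Replicate numbers are shared by 10 pairs of sham and HF-HI libraries. Same-numbered libraries correlated at -0.31 to 0.36, over 0.1 in 4 of 10 pairs, and none correlated best with its own number, so they were not treated as pairs. With the replicate block 32 members were higher and 44 lower, with 74 calls kept, 3 lost and 2 added. Among the losses were Cul4b (-0.091) and March5 (0.10). When each library was left out in turn, 73 to 81 members were called, 30 to 35 higher and 43 to 46 lower. Cul4b lost its call without sham replicates 4 or 7 or HF-HI replicates 1, 2, 4 or 5, with differences of -0.11 to -0.073 over all 21 fits, and March5 without sham replicates 4 or 5 or HF-HI replicate 6 (0.090 to 0.13). Of the other called members, Rnf19b lost its call in 14 of the 21 fits, Rnf227 in 7, Fbxl19 in 4, Klhl26 in 3, and Fbxw5 and Rnf111 in 1 each. Of those not called, Fbxo31 was called in 7, Fbxo34 and Rnf130 in 6, Rnf220 in 5, Trim46 in 4, and Klhl12 and Rnf167 in 1 each. Depth is unknown, so no limit of detection can be given.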
